A study of Mus musculus with 12 samples.

Results

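The cytosolic ribosomal protein genes were taken from the table of 10655 genes by their symbols: those that start with Rpl, Rps or Rplp and a digit, and Rpsa, without the S6 kinases (Rps6k) and without annotated pseudogenes (-ps). The rule found 82 genes. Of these, 44 encode proteins of the large 60S subunit and 31 proteins of the small 40S subunit. A further 6 are paralogs or retrotransposed copies (Rpl7l1, Rpl22l1, Rpl36al, Rpl37rt, Rps4l and Rps27l), and 1, Rps19bp1, encodes a protein that binds the S19 protein and is not a part of the ribosome. The label therefore held for 75 core genes plus 7 others, and the 82 are called members here. Rpl26 and Rpl30 were not analysed here, and Fau and Gnb2l1, which also encode ribosomal proteins, lie outside the symbol rule.

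Ribosomal proteins surround the ribosomal RNA of both subunits, and each core protein is needed in about 1 copy per ribosome, so their messages are made and translated in concert. In mammals these messages carry a terminal oligopyrimidine (TOP) tract at the 5′ end, a C followed by pyrimidines, through which mTOR signalling sets their translation. The amount of ribosomal protein mRNA differs between cell types and states.

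RNA of mouse aortic endothelial cells (MAECs) was sequenced with SMART-seq, a full-length protocol, in 12 libraries of 4 groups of 3. The groups were WD offspring of WD mothers (WD_WD), WD offspring of CD mothers (CD_WD), CD offspring of WD mothers (WD_CD) and CD offspring of CD mothers (CD_CD). Each title names 2 diets, taken here to be those of mother and offspring in turn, which is the order of the series text. That text adds that WD offspring had been put back on WD for 4 weeks. The series title names a maternal high-fat diet and atherosclerosis. The labels give no genotype, sex, age, sort or pooling, and whether each replicate is another animal is not said. All p-values here therefore rest on the spread between libraries, part or all of which may be technical.

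Between 4074413 and 19670570 reads per library fell on the listed genes. Of the pan-endothelial markers, Robo4 was at 0 in a WD_WD library and the others had reads in all 12 libraries. Pecam1, the CD31 adhesion molecule, was lower in WD offspring, with 2537 to 4277 normalised reads in WD_WD and 923 to 9817 in CD_WD, against 18154 to 26277 in WD_CD and 17284 to 29878 in CD_CD. CD_WD replicate 1 stood apart, with the lowest Pecam1 value and with 259780 normalised reads of Cd79a, the B cell receptor component, against 2504 to 9342 in the rest of its group. The number of members called with CD mothers, and the estimates of most members described here, are given again without this library. Counts by subunit, by gene list and by most other scalings and tests are given with all libraries only. In bulk RNA, fewer cells of a type and less RNA per cell cannot be told apart.

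The promoter stretches of the members at both ends of the range of response to the offspring's diet are shown, because the tract through which ribosomal protein messages are controlled lies at the start of transcription. They are the 3 core genes with the largest and the 3 with the smallest mean log2 fold change among the 62 members with a RefSeq promoter entry (GRCm38.p6). Each runs from 40 bases before to 25 bases from the annotated start, and capitals mark the pyrimidine tract: a C within 10 bases of the start with at least 4 pyrimidines after it. Rpl35 lies at chr2:39005107-39005171 on the minus strand, Rps15a at chr7:118116123-118116187 on the minus strand and Rpl37a at chr1:72711220-72711284 on the plus strand. Rpl7a lies at chr2:26910767-26910831, Rpl22 at chr4:152325686-152325750 and Rpl5 at chr5:107900488-107900552, all on the plus strand.
Rpl35: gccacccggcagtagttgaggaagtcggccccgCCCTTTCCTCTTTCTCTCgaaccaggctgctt
Rps15a: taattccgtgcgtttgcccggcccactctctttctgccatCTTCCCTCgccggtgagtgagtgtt
Rpl37a: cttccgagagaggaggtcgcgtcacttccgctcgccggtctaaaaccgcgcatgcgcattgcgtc
Rpl7a: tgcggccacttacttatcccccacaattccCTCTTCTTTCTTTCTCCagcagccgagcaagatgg
Rpl22: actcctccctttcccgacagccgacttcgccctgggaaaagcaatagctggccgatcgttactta
Rpl5: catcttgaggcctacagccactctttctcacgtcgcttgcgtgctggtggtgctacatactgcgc

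Both ends of the range held promoters with and without a tract at the annotated start. The marked tract was 18 bases long in Rpl35 and 8 bases long in Rps15a, and it was 17 bases long in Rpl7a, whose fold change was the smallest of the core genes. In Rpl7a the pyrimidines run on before the search window of 10 bases, so its whole tract is longer than 17. Over all members with an entry, 33 of 62 (53.2%) held the tract, against 30.8% of the 27025 promoters. The 33 members with it had a median log2 fold change of 2.19, and the 29 without it 2.08, as the mean of both offspring contrasts. A match says only that these letters are in the window, and an annotated start may differ from the one used in these cells.

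Other motifs were searched on both strands of the 300 bases around each start. CCGGAAG, the core of ETS-type sites, was in 23 of 62 member promoters (37.1%), against 9.12% of all promoters. AAGATGG, the core of a YY1 site, was in 9 (14.5%), against 6.48%. TATAAA was in 6 (9.68%), against 14.2%. These shares describe the promoters and are independent of the libraries.

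Ribosomal protein genes were higher in WD offspring than in CD offspring, with mothers of either diet. Of the 82 members, 66 rose in WD_WD against WD_CD and 64 rose in CD_WD against CD_CD (limma, Benjamini-Hochberg adjusted p under 0.05 over all genes), and 0 fell in either. Over all genes tested, 14.2% were called higher and 10.2% lower with WD mothers, and 9.46% higher and 5.55% lower with CD mothers. The median log2 fold change of the members was 2.19 with WD mothers and 2.21 with CD mothers, against 0.01 and -0.02 over all genes. These changes are on the log2(value + 1) scale, and 81 of 82 members were above 0 in each comparison. The 2 comparisons share no library, but they share 1 estimate of each gene's spread, since all 12 libraries were fitted in 1 model. In that fit 62 members were called in both, 4 with WD mothers alone, 2 with CD mothers alone and 14 in neither.

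Levels in single libraries showed the same separation. All 3 WD_WD libraries were above all 3 WD_CD libraries for 78 of 82 members, and all 3 CD_WD above all 3 CD_CD for 79, where 21.9% of all genes did so in each case. All 3 WD_WD libraries were below all 3 WD_CD libraries for 0 members (19.4% of all genes), and all 3 CD_WD below all 3 CD_CD for 1, Rps4l (21.6%). Without CD_WD replicate 1, both remaining CD_WD libraries were above all 3 CD_CD libraries for 79 members, against 28.4% of all genes. All 6 libraries of WD offspring were above all 6 of CD offspring for 75 members, against 12.6% of all genes, and below them for 0, against 9.69%. The 7 exceptions were Rpl3, Rpl5, Rpl7a, Rpl7l1, Rpl22, Rps3a1 and Rps4l. The median member level on the log2 scale was 12.92, 12.48 and 12.72 in WD_WD, 14.29, 12.15 and 11.90 in CD_WD, 10.76, 10.15 and 10.61 in WD_CD, and 10.49, 10.35 and 10.94 in CD_CD.

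**Figure D1:**
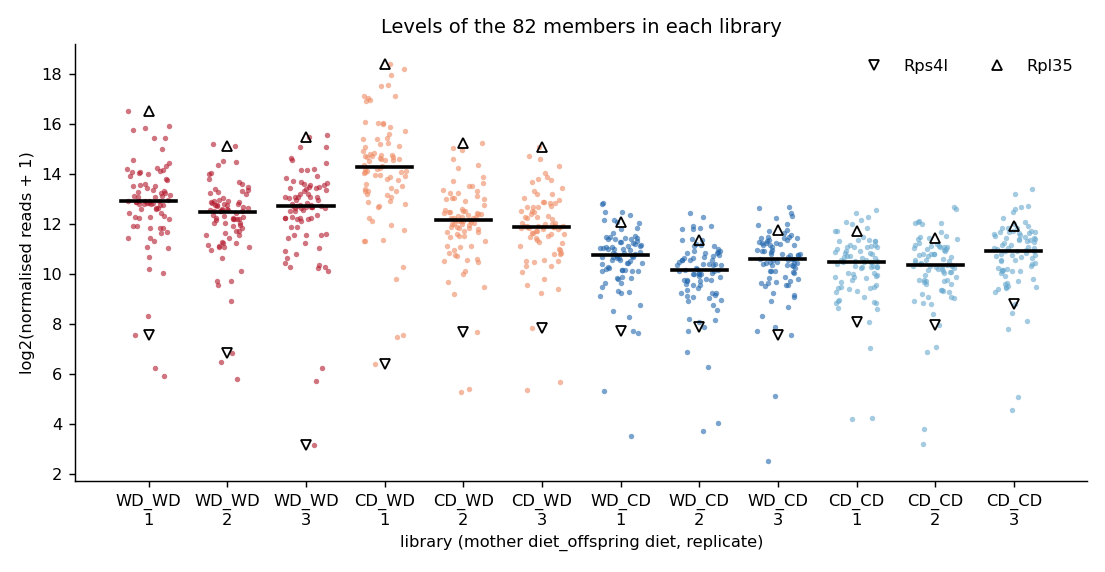
Levels of the 82 members in each library, as log2(normalised reads + 1); each point is 1 gene, the bar is the median of the members, and the open triangles mark Rpl35 and Rps4l. The medians lie between 11.90 and 14.29 in WD offspring and between 10.15 and 10.94 in CD offspring, and CD_WD replicate 1 is the highest library.

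As a share of all reads in the table, the members took 4.99%, 3.02% and 4.69% in WD_WD and 12.3%, 3.57% and 3.03% in CD_WD. In CD offspring they took 2.36%, 1.67% and 2.16% in WD_CD and 2.0%, 1.93% and 2.82% in CD_CD. The lowest share in WD offspring was thus above the highest in CD offspring, by a narrow margin. The 95% Wilson interval of the smallest library, WD_WD replicate 3, was 4.67% to 4.71%, so counting error was small beside the spread between libraries. After the 59 genes with most reads in any library were taken out of the totals, the shares were 8.13%, 4.77% and 7.31% in WD_WD and 18%, 5.23% and 4.46% in CD_WD. They were 2.61%, 1.79% and 2.40% in WD_CD and 2.16%, 2.11% and 3.06% in CD_CD.

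Marker levels of other cell types also differed between the diets. Summed over the 18 measured of 20 lymphocyte markers, normalised reads ranged from 18264 to 46425 in WD_WD and from 10367 to 489756 in CD_WD, against 2724 to 7961 in WD_CD and 556 to 7332 in CD_CD. Summed macrophage and monocyte markers (20 of 20 measured) ranged from 761760 to 1333900 in WD_WD and from 106124 to 718058 in CD_WD, against 12859 to 139689 in WD_CD and 24693 to 41113 in CD_CD. Summed pan-endothelial markers (23 of 23) ranged from 16777 to 29560 in WD_WD and from 5443 to 53844 in CD_WD, against 81562 to 113679 in WD_CD and 105494 to 131207 in CD_CD. Summed MHC class II genes (10 of 10) ranged from 368859 to 924969 in WD_WD and from 661729 to 3818020 in CD_WD, against 10404 to 84244 in WD_CD and 14032 to 28891 in CD_CD. Neutrophil markers (5 of 11 measured) ranged from 13724 to 172023 in WD_WD and from 25252 to 193023 in CD_WD, against 151 to 1147 in WD_CD and 188 to 752 in CD_CD. The smooth muscle list (14 of 15) had a median log2 fold change of -1.69 with WD mothers and -3.38 with CD mothers, with 3 and 10 genes lower. Replicates ranked alike by MHC class II sum and by ribosomal protein share in CD_WD, WD_CD and CD_CD. In WD_WD both were highest in replicate 1, but the sum was lowest in replicate 3 and the share in replicate 2. Single libraries did not all follow 1 list. CD_WD replicate 1 had the highest lymphocyte sum and the highest ribosomal protein share of the 12 libraries but the lowest macrophage sum of WD offspring, and in WD_WD replicate 3 had the highest lymphocyte sum and replicate 1 the highest ribosomal protein share. Defining lymphocyte markers were low but mostly not absent in CD offspring: Cd79b was at 0 in a CD_CD library, and Cd7 in a WD_CD library. The part of these cell types in the ribosomal protein result was not tested.

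**Figure D2:**
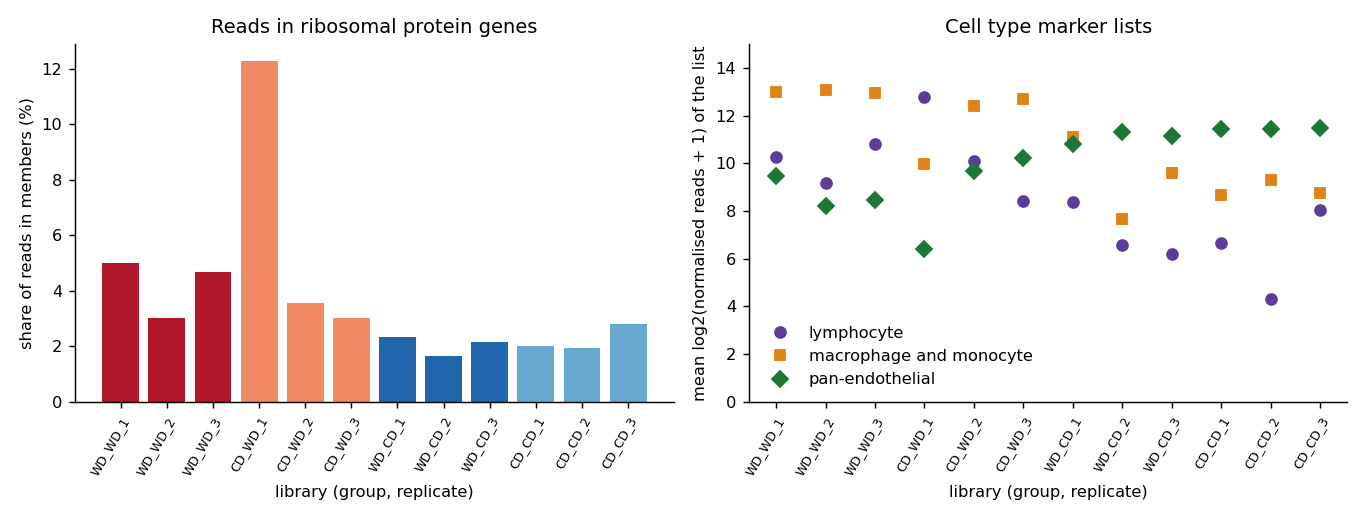
Left, the percentage of reads that fell on the 82 members in each library; right, the mean log2(normalised reads + 1) of the lymphocyte, macrophage and monocyte, and pan-endothelial marker lists. Member shares are 3.02% to 12.3% in WD offspring and 1.67% to 2.82% in CD offspring, and the pan-endothelial list is lower in WD offspring.

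Without CD_WD replicate 1, 60 members passed in CD_WD against CD_CD, with a median log2 fold change of 1.51, where 8.51% of all genes were higher. Without CD_CD replicate 1 the count was 28 (4.79% of all genes), and without CD_CD replicate 2 it was 27 (4.86%). With WD mothers, leaving out single libraries gave 31 to 57 members called, with 31 without WD_CD replicate 2, where 1065 of 10655 genes were higher, and 40 without WD_WD replicate 1 (11.2% of all genes). Rpl35, Rpl41, Rplp1, Rps15a and Rps27l were among the members called in both comparisons in every such fit. Members lowered in any of these fits numbered 0.

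Among proteins of the large subunit, 36 of 44 rose with WD mothers and 35 of 44 with CD mothers. Rpl35, a protein at the exit of the tunnel through which the new chain leaves the ribosome, had the largest change. It had 94560, 35943 and 46270 normalised reads in WD_WD, against 4343, 2623 and 3468 in WD_CD, and 347521, 38510 and 34295 in CD_WD, against 3352, 2795 and 3893 in CD_CD. Groups did not overlap, and the lowest WD offspring library was several times above the highest CD offspring library. The log2 fold change was 3.99 ± 0.74 (SE, n = 3 each, limma adjusted p = 0.003) with WD mothers and 4.54 ± 0.74 (limma adjusted p = 0.00241) with CD mothers. All 6 measured genes of the tunnel exit list rose in both comparisons.

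Rpl41 encodes the shortest ribosomal protein, with 75 coding bases before the stop codon, and it had the highest level per kilobase of transcript among the members. Its values were 58139, 37166 and 47814 in WD_WD, against 5790, 3928 and 5063 in WD_CD. In the other pair they were 141933, 33271 and 27093 in CD_WD, against 5032, 4461 and 6272 in CD_CD. The log2 fold changes were nearly equal, 3.27 ± 0.55 with WD mothers and 3.28 ± 0.55 with CD mothers (SE, limma adjusted p = 0.00188 and 0.00294). Rpl32 (log2 fold change 3.78 and 3.8), Rpl37a (3.02 and 3.68) and Rpl38 (3.16 and 3.38), further proteins of the 60S body, also rose with WD and CD mothers.

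The stalk of the large subunit, which recruits the elongation factors, is made of Rplp0 at its base and Rplp1 and Rplp2 at its tip, and all 3 rose in both comparisons. Rplp1 had 20403, 16968 and 18835 normalised reads in WD_WD, against 2478, 1515 and 2869 in WD_CD, and 69152, 12711 and 12973 in CD_WD, against 1776, 2069 and 3201 in CD_CD. No library of CD offspring came near those of WD offspring. Rplp1 changed by 3.08 ± 0.57 and 3.31 ± 0.57 on the log2 scale with WD and CD mothers, Rplp2 by 2.95 ± 0.55 and 2.86 ± 0.55, and Rplp0 by 1.87 ± 0.61 and 2.0 ± 0.61. Rplp0 passed the threshold by little, at limma adjusted p = 0.0413 with WD mothers and 0.0435 with CD mothers.

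Rpl5 and Rpl11 form a particle with the 5S ribosomal RNA and, when free, bind the p53 regulator Mdm2. Rpl11 had 7303, 4213 and 6442 normalised reads in WD_WD, against 1406, 853 and 1539 in WD_CD, and 16677, 3787 and 3409 in CD_WD, against 1431, 1064 and 1649 in CD_CD. It rose by 2.25 ± 0.53 and 2.14 ± 0.53 on the log2 scale with WD and CD mothers (limma adjusted p = 0.0101 and 0.0178). Rpl5 had 3832, 2243 and 4736 in WD_WD, against 2242, 1300 and 1971 in WD_CD, and 8709, 2203 and 2229 in CD_WD, against 1946, 1298 and 1991 in CD_CD. Its groups did not overlap within either pair but lay close to each other, and it did not pass (0.94 ± 0.50, limma adjusted p = 0.187, and 1.03 ± 0.50, 0.191). The difference between the 2 genes was not tested directly.

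Rpl7a, a protein of the 60S body, had the smallest change of the core genes in both comparisons. It had 2594, 1614 and 1227 normalised reads in WD_WD, against 1138, 893 and 1395 in WD_CD, and 2667, 1410 and 1269 in CD_WD, against 1059, 987 and 1105 in CD_CD. With WD mothers the groups overlapped, and with CD mothers the CD_WD libraries were above those of CD_CD. The log2 fold change of Rpl7a was 0.62 ± 0.37 with WD mothers and 0.68 ± 0.37 with CD mothers (limma adjusted p = 0.229 and 0.233). Rpl3, which lies near the peptidyl transferase centre, had 0.75 and 1.08, and Rpl4, which lines the tunnel, 0.81 and 1.30, with limma adjusted p between 0.0871 and 0.25.

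Of the 31 small-subunit genes, 25 rose in each comparison. Rps15a had 8620, 7344 and 9340 normalised reads in WD_WD, against 710, 502 and 605 in WD_CD, and 29361, 4875 and 3857 in CD_WD, against 694, 624 and 1111 in CD_CD. All WD offspring were well above all CD offspring. Rps15a rose by 3.81 ± 0.60 and 3.39 ± 0.60 on the log2 scale with WD and CD mothers (SE, limma adjusted p = 0.00135 and 0.00347), the largest change of the 40S genes with WD mothers. Rps25, which viral internal ribosome entry sites use to recruit the 40S subunit, had one library far above the rest. It had 194862, 8499 and 14235 in CD_WD, against 2023, 2222 and 2974 in CD_CD, and 16201, 6622 and 11581 in WD_WD, against 2374, 1929 and 2409 in WD_CD. Rps25 passed with CD mothers (3.59 ± 0.86, limma adjusted p = 0.0157) and not with WD mothers (2.27 ± 0.86, 0.0714). Its change with CD mothers was 2.21 without CD_WD replicate 1 (limma adjusted p = 0.00189), and the call was lost without CD_CD replicate 1 (0.0636) or CD_CD replicate 2 (0.0564).

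Rps6, the substrate of the S6 kinases downstream of mTOR, had 8759, 5804 and 6783 normalised reads in WD_WD, against 1892, 1446 and 1766 in WD_CD. In the other pair it had 26080, 4373 and 3750 in CD_WD, against 1673, 1759 and 2429 in CD_CD. It rose by 2.05 ± 0.58 and 1.97 ± 0.58 on the log2 scale with WD and CD mothers (limma adjusted p = 0.0231 and 0.0377). Rpsa, which is also known as the laminin receptor, missed the threshold narrowly in both comparisons (1.39 ± 0.50, limma adjusted p = 0.0585, and 1.57 ± 0.50, 0.0502), although its groups did not overlap. Rps3a1 had 1.19 and 1.05 and did not pass (limma adjusted p = 0.0939 and 0.17).

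The lowest core genes were Rps27 and Rpl34. Rps27, a zinc finger protein of the 40S subunit, had 74.5, 54.6 and 75.2 normalised reads in WD_WD, against 10.6, 15.5 and 33.4 in WD_CD, and 180, 37.7 and 40.5 in CD_WD, against 17.3, 13.1 and 22.7 in CD_CD. Of its 50-base stretches, 98.65% also occur in transcripts of other genes, the highest share of any member. Its change, 1.87 ± 0.92 with WD mothers and 1.86 ± 0.92 with CD mothers, did not pass (limma adjusted p = 0.153 and 0.196). The members as a whole shared a median of 54.5% of their 50-base stretches with other genes, and 48 of 82 shared over 50%. How the authors counted reads that match several genes is not given in the sources used here, so the levels of these genes are uncertain. Across the 82 members, the rank correlation of this share with the fold change was -0.09 with WD mothers and -0.04 with CD mothers.

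**Figure D3:**
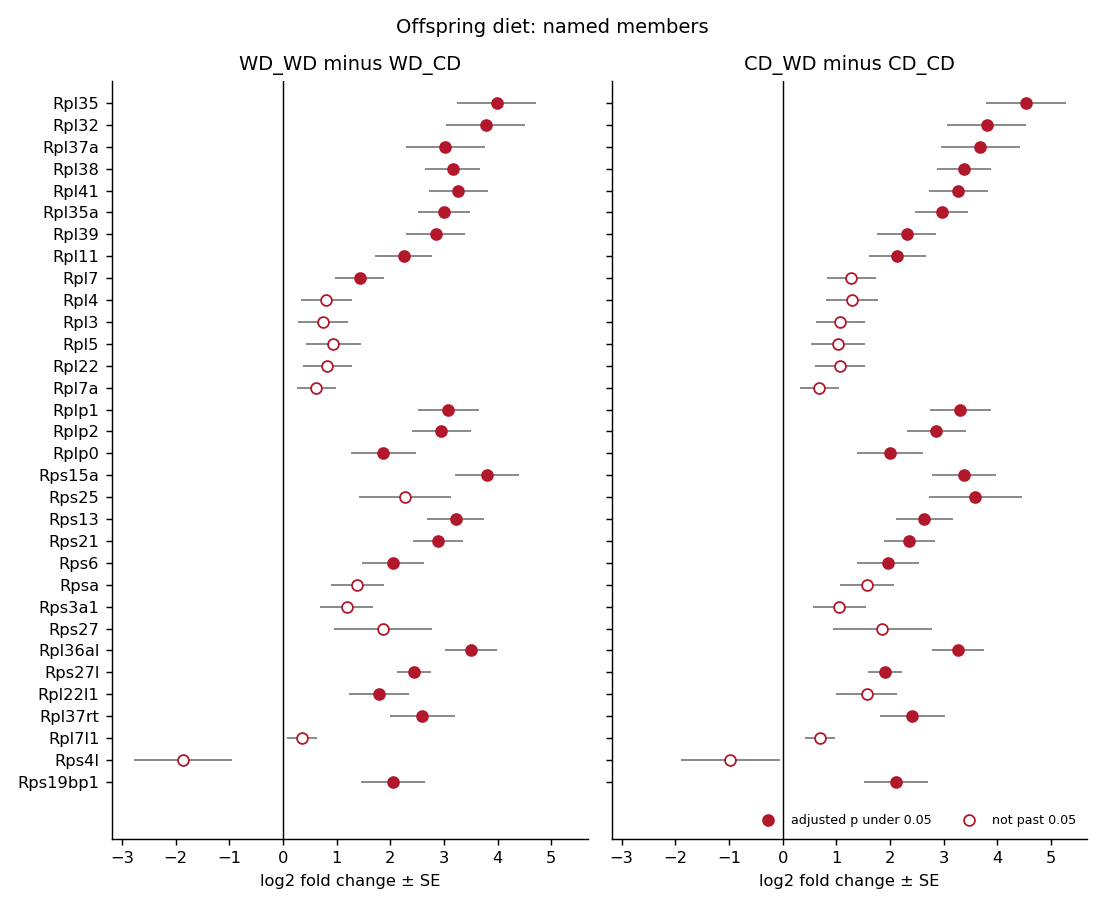
Log2 fold change of named members for the offspring's diet, with WD mothers on the left and CD mothers on the right; points are limma estimates from 3 libraries a group and bars are 1 SE. Filled points passed an adjusted p of 0.05; Rpl35 is highest in both panels and Rps4l is the only gene below 0.

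Among the 6 paralogs and copies, 4 rose with WD mothers and 3 with CD mothers. Rps27l, a paralog of Rps27 that p53 is known to induce, was not highest in CD_WD replicate 1. It had 7310, 7833 and 6391 normalised reads in WD_WD, against 1131, 1050 and 1931 in WD_CD, and 4399, 4568 and 6613 in CD_WD, against 1467, 1175 and 1454 in CD_CD. CD_WD replicate 1 was the lowest library of its group for Rps27l and the highest of all 12 for 78 members. Rps27l rose by 2.44 ± 0.31 and 1.91 ± 0.31 on the log2 scale with WD and CD mothers (SE, limma adjusted p = 0.000504 and 0.00242), the smallest p of any member with WD mothers.

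Rpl36al, an autosomal copy of the X-linked Rpl36a, had 7254, 4707 and 4736 normalised reads in WD_WD, against 910, 293 and 409 in WD_CD, and 11804, 4128 and 3737 in CD_WD, against 547, 532 and 705 in CD_CD. It rose by 3.51 ± 0.49 and 3.26 ± 0.49, and Rpl36a by 2.10 ± 0.58 and 2.40 ± 0.58, on the log2 scale with WD and CD mothers. Groups of both genes did not overlap, and the copy had the larger estimate in each comparison, though this difference was not tested directly. Rpl22l1, a paralog that can take the place of Rpl22, rose with WD mothers (1.79 ± 0.56, limma adjusted p = 0.036) and did not pass with CD mothers (1.56 ± 0.56, 0.0805). Rpl22 itself had 0.83 and 1.07 and did not pass. Rpl37rt, a retrotransposed copy of Rpl37, rose in both comparisons (2.60 ± 0.61 and 2.42 ± 0.61).

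Rpl7l1 and Rps4l passed in neither comparison. Rpl7l1, a nucleolar relative of Rpl7, had 1182, 846 and 1378 normalised reads in WD_WD, against 800, 871 and 938 in WD_CD, and 1240, 1021 and 1291 in CD_WD, against 706, 770 and 718 in CD_CD. It did not pass with WD or CD mothers (0.36 ± 0.28 and 0.69 ± 0.28), whereas Rpl7 rose with WD mothers (1.43 ± 0.46, limma adjusted p = 0.0383). Rps4l, a mouse relative of the X-linked Rps4x, had 190, 114 and 7.92 in WD_WD, against 210, 235 and 188 in WD_CD, and 83.7, 207 and 226 in CD_WD, against 271, 250 and 449 in CD_CD. It was the only member with log2 fold changes below 0 (-1.86 ± 0.92 and -0.98 ± 0.92), neither of which passed (limma adjusted p = 0.153 and 0.525). In CD_WD all 3 libraries were below those of CD_CD, and the lowest value, in WD_WD replicate 3, stood for 2 reads. Rps19bp1, the binding protein, rose in both comparisons (2.06 ± 0.60 and 2.11 ± 0.60, limma adjusted p = 0.0263 and 0.0323).

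Most estimates with CD mothers were smaller without CD_WD replicate 1. Rpl35 had a log2 fold change of 3.45 ± 0.38, Rpl41 2.53 ± 0.29, Rpl32 2.69 ± 0.39, Rpl37a 2.58 ± 0.39 and Rpl38 2.67 ± 0.32, and all passed. The stalk genes Rplp0 (1.11), Rplp1 (2.50) and Rplp2 (2.10) also passed, as did Rpl11 (1.40), Rps15a (2.47), Rps6 (1.07), Rpl36al (2.73), Rpl36a (1.59), Rps27l (2.02) and Rpl37rt (1.67). Rps27l was the exception in size, with 2.02 against 1.91 with the library. The call of Rps19bp1 was lost (1.91 ± 0.66, limma adjusted p = 0.0821). So were those of the core genes Rps12 (1.36, limma adjusted p = 0.0635), Rpl6 (0.93, 0.0696) and Rpl14 (1.19, 0.0645). Genes that did not pass with all libraries did not pass here: Rpl5 (0.37), Rpl7a (0.35), Rpl3 (0.47), Rpl4 (0.60), Rpl22 (0.61), Rpl22l1 (0.98), Rps3a1 (0.40), Rpsa (0.88), Rpl7l1 (0.65) and Rps4l (-0.52).

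Within a group most members moved together. The median within-group SD of the members on the log2 scale was 0.38 in WD_WD, 1.33 in CD_WD, 0.36 in WD_CD and 0.31 in CD_CD, over 3 libraries each. After the median of the core members in the same library was subtracted it was 0.23, 0.27, 0.18 and 0.14. Over the 2 other CD_WD libraries it was 0.20, and 0.09 after subtraction. With all libraries, subtraction lowered the SD most in CD_WD. In WD_WD, 62 members were highest in replicate 1 and 66 lowest in replicate 2, in WD_CD 71 were lowest in replicate 2, and in CD_CD 77 were highest in replicate 3.

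Relative to the other ribosomal proteins, a few members differed between diets. In the fit of values centred on the median of the core members, 5 were higher and 7 lower in WD_WD against WD_CD, and 9 were higher and 6 lower in CD_WD against CD_CD. In that fit 1.18% of all genes were called higher and 45.7% lower with WD mothers, and 0.939% higher and 46.8% lower with CD mothers. Rpl35 (1.86 and 2.32), Rpl32 (1.65 and 1.58), Rps15a (1.68 and 1.16) and Rpl41 (1.14 and 1.05) were higher with mothers of either diet. Rps4l (-3.99 and -3.20), Rpl7a (-1.51 and -1.54), Rpl3 (-1.38 and -1.15) and Rpl5 (-1.19 and -1.19) were lower in both, all at limma adjusted p under 0.05. Without CD_WD replicate 1, 11 members were higher (2.25% of all genes) and 8 lower (29.9%) with CD mothers, Rpl35 (2.06), Rpl32 (1.30), Rps15a (1.07) and Rpl41 among the higher and Rpl7a (-1.04), Rpl3 (-0.92) and Rpl5 (-1.02) among the lower, while Rps4l (-1.92) did not pass. The ratio of 40S to 60S reads was 0.591 to 0.673 in WD offspring and 0.671 to 0.705 in CD offspring.

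Fold changes followed the length of the coding sequence. Across the 80 members with an annotated coding length, Spearman's rho between length and log2 fold change was -0.64 with WD mothers and -0.59 with CD mothers, and across 10015 other genes it was -0.35 and -0.36. These correlations are across genes that share the same libraries and are given as descriptions. The members are short, with a median of 454.5 coding bases against 1335 for other genes. Among genes of 301 to 600 coding bases, the 47 members had a median log2 fold change of 2.27 with WD mothers and 2.40 with CD mothers, and the 1176 other genes 1.03 and 0.80. Among genes of 601 to 1200 bases, the 21 members had 1.71 and 1.62, and the 3005 other genes 0.28 and 0.19. At up to 300 bases the 10 members had 2.85 and 2.68, and the 219 other genes 1.87 and 1.65. Other genes of over 2400 bases had -0.86 and -0.75. With CD mothers and without CD_WD replicate 1, rho was -0.69 for members and -0.42 for other genes, and the medians at 301 to 600 bases were 1.60 and 0.76.

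**Figure D4:**
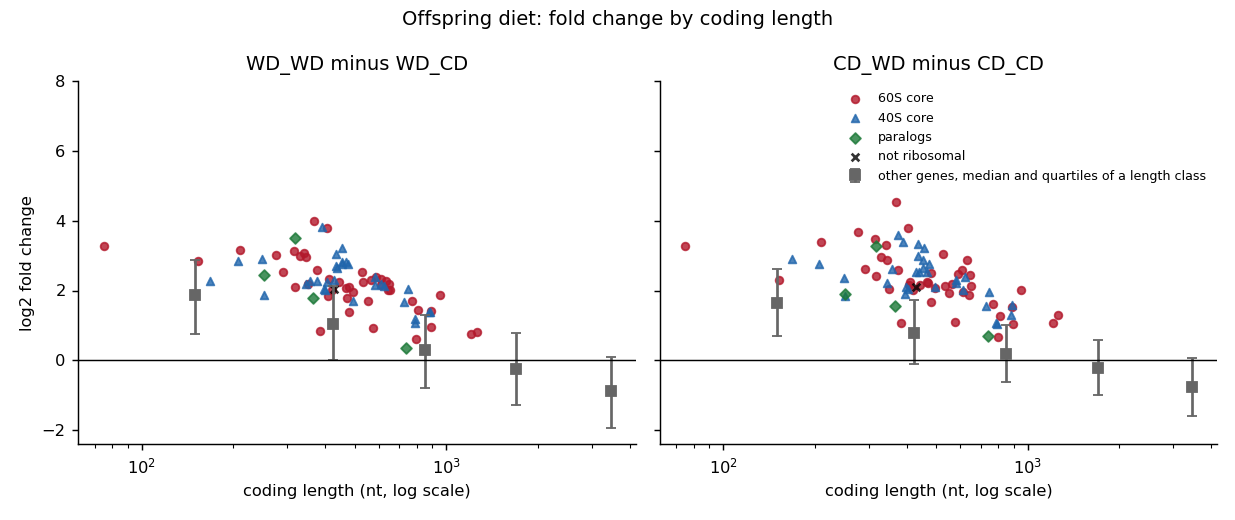
Log2 fold change for the offspring's diet against coding length in nucleotides (log scale), with WD mothers on the left and CD mothers on the right; coloured symbols are members by role, and grey squares with bars are the median and quartiles of other genes in a length class, drawn at the middle of the class. Fold changes fall with length for members and for other genes, and the members' medians lie above those of other genes in each class that holds members.

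When the trend with coding length was removed from each library, fewer members passed. With WD mothers 10 of 80 were higher, where 8.75% of all genes were, and with CD mothers 11 of 80, where 4.96% were, so that the share with WD mothers was not far from that of all genes. The median log2 fold change of the members was then 1.16 and 1.36. Called in both were Rpl32, Rpl35, Rpl35a, Rpl36al, Rplp1 and Rps15a. With the trend removed and CD_WD replicate 1 left out, the median with CD mothers was 0.63 and 11 members were called (4.23% of all genes). The cause of the trend was not tested.

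The size of the change also depended on the scaling. The deposited size factors put the typical gene at the same level in each library. With plain scaling to each library's total, the median of all genes was -1.36 with WD mothers and -1.45 with CD mothers, and the members' medians were 0.83 and 0.76. On that scale 23 members were higher and 2, Rpl7l1 and Rps4l, lower with WD mothers, where 4.12% of genes were higher and 40.2% lower. With CD mothers 21 were higher and 0 lower, where 2.73% of genes were higher and 38.5% lower. On that scale and without CD_WD replicate 1, 16 members were higher with CD mothers (2.93% of genes). With all libraries, Rpl35, Rpl32, Rpl35a, Rps15a, Rpl36al and Rplp1 were called higher in both comparisons on both scales and with the length trend removed.

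Other scalings and tests, with all libraries, gave other counts. Without the 59 top genes in the totals, 47 members were called higher with WD mothers (7.04% of all genes) and 43 with CD mothers (4.44%). Quantile normalisation gave 50 (11.6%) and 45 (9.39%), and TMM scaling 66 (13.0%) and 63 (8.69%). On the recovered reads, edgeR called 55 members higher with WD mothers (10.4% of all genes) and 67 with CD mothers (8.64%), and DESeq2 61 (15.9%) and 66 (13.4%). A limma fit of the compared groups alone called 72 (13.1%) and 23 (6.73%). Members called lower numbered 0 in each of these fits.

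**Figure D5:**
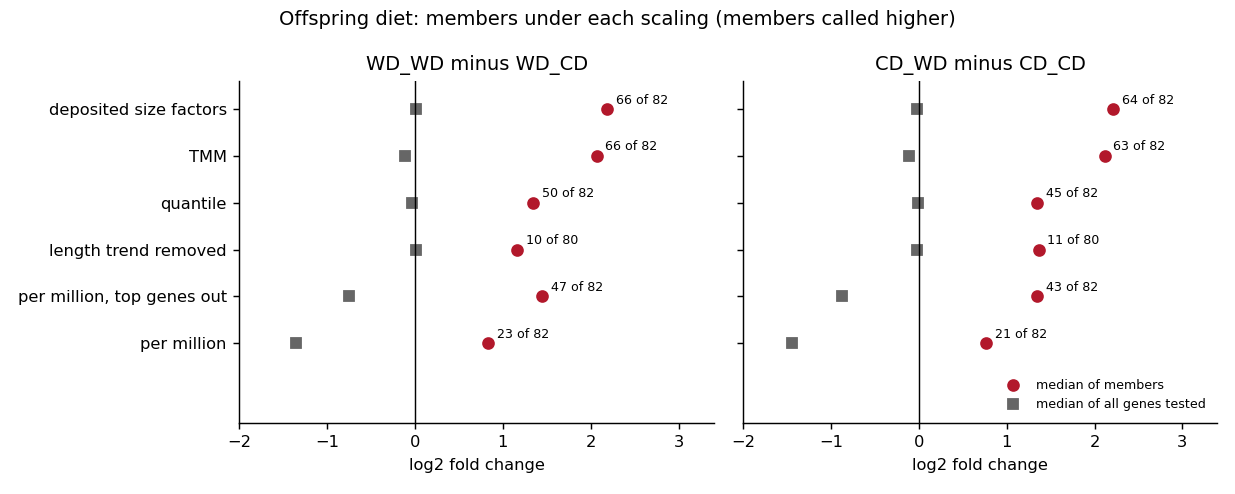
Median log2 fold change of the members (circles) and of all genes tested (squares) under 6 scalings of the values, with WD mothers on the left and CD mothers on the right; numbers beside the circles count the members called higher. The members' median stays above 0 and above that of all genes under each scaling, between 0.76 and 2.21.

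The mother's diet moved no member past the threshold. In CD offspring, 0 of 82 members passed in WD_CD against CD_CD (0.0% of all genes did), with a median log2 fold change of -0.10, and 25 of 82 were above 0. All 3 WD_CD libraries were above all 3 CD_CD libraries for 1 member, Rpl7l1 (4.0% of all genes), and below them for 1, Rps4l (4.87%). In WD offspring, 0 of 82 passed in WD_WD against CD_WD (0.0% of all genes), with a median of -0.11. All 3 WD_WD libraries were above all 3 CD_WD libraries for 0 members (5.86% of all genes) and below them for 0 (4.16%). At an unadjusted p under 0.05, 0 members passed in either comparison, against 276 and 628 of all genes. edgeR and DESeq2, run on the recovered reads, also called 0 members. In the authors' deposited table, 0 members passed an adjusted p of 0.05 in either comparison of mothers' diets, where 0.122% of all genes did in CD offspring and 0.338% in WD offspring, and the members' median log2 fold change was -0.09 in CD offspring and -0.59 in WD offspring.

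The sign of the small difference in WD offspring changed with single libraries. With all libraries, 67 of 82 members were lower in WD_WD than in CD_WD. Without CD_WD replicate 1 the median was 0.62, 79 of 82 members were higher in WD_WD, 27 had an unadjusted p under 0.05 and 0 passed the threshold. Leaving out WD_WD replicate 2 gave a median of 0.03, and leaving out CD_WD replicate 2 or 3 gave -0.46 or -0.58. In CD offspring the median was 0.07 without CD_CD replicate 3 and 0.10 without WD_CD replicate 2. The members farthest from 0 in WD offspring were Rps4l (-1.45), Rps25 (-1.42) and Rpl37a (-0.89) on the lower side and Rps27l (0.49), Rps13 (0.32) and Rps21 (0.27) on the higher side, with limma adjusted p of at least 0.867. The 2 effects of the mother's diet did not differ for any member past the threshold (0 of 82 by the interaction, 0.0% of all genes, and 0 members at an unadjusted p under 0.05).

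Other parts of the translation machinery were compared by their counts. Of the ribosomal proteins outside the symbol rule, Fau, whose product carries the S30 protein, rose by 3.4 and 3.89 on the log2 scale with WD and CD mothers. Gnb2l1, the scaffold RACK1, had 1.17 and 1.21 and did not pass (limma adjusted p = 0.063 and 0.0759). The lists here are given with all libraries. Mitochondrial ribosomal proteins, by their Mrp symbols, were higher for 47 of 77 with WD mothers and 32 of 77 with CD mothers. These shares were 61.0% and 41.6%, beside 14.2% and 9.46% of all genes. Of the mitochondrial list 0 were lower, and the medians were 1.51 and 1.06.

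Of 8 elongation factors, 3 were higher and 1 lower with WD mothers, and 3 were higher and 0 lower with CD mothers. The share called higher was 37.5% in both comparisons, beside 14.2% and 9.46% of all genes. Eef1d and Eef1e1 rose in both. Eef2, which moves the ribosome along the message and has a TOP tract itself, had 3809, 2457 and 2811 normalised reads in WD_WD, against 6866, 6660 and 6602 in WD_CD, and fell by 1.17 on the log2 scale (limma adjusted p = 0.0193). With CD mothers its change was -0.90 and did not pass (0.0757). Eef1a1, another abundant TOP message, had 0.29 and 0.59 and did not pass. Of 41 initiation factors, 10 were higher and 3 lower with WD mothers, and 8 higher and 3 lower with CD mothers, so that 24.4% and 19.5% were called higher, with Eif3k, Eif2s2 and Eif6 among the higher in both.

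Over all genes, 14.2% were called higher and 10.2% lower with WD mothers, and 9.46% higher and 5.55% lower with CD mothers. Of 18 other TOP messages, 7 (38.9%) were higher and 2 lower with WD mothers, and 5 (27.8%) higher and 1 lower with CD mothers. The TOP list shares Fau and several elongation factors with the lists above. Naca, which binds new chains at the ribosome, rose by 1.87 and 1.74. Of 60 ribosome biogenesis factors, 7 were higher with WD mothers and 6 with CD mothers, with 0 lower. The shares called higher, 11.7% and 10%, were near those of all genes. Nop10 and Nhp2, small proteins of the H/ACA particles, rose in both. Of 16 genes of the RNA polymerase I machinery, 5 (31.25%) were higher and 2 lower with WD mothers and 1 (6.25%) higher with CD mothers. Of 15 regulators of TOP messages, Tial1 fell with WD mothers, and with CD mothers 1 was higher and 1 lower. Mtor had -0.82 in each comparison and did not pass.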

How the data were processed

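The submitters' processing notes name HISAT2 2.2.1 and featureCounts 2.0.1, then FastQC 0.12.1, SAMtools 1.13, Trim Galore 0.6.10 and DESeq2, and the build GRCm38 (mm10). Tool order, settings, strand and treatment of multiply matching reads were not given in the sources used here. Values in the deposited table are a normalised signal for each gene in each library. Of its values above 0, 100% came out as whole reads within 0.01, so reads were recovered (the lowest value of CD_CD replicate 3 was taken as 3 reads). The authors' deposited table also holds log2 fold changes and p-values for both comparisons of mothers' diets.

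Since the unit was not counts, limma 3.58.1 (R 4.3.3), with a mean-variance trend, was run on log2(value + 1) in 1 model of the 12 libraries with 4 group means (8 residual degrees of freedom), over all 10655 genes, as planned for such a unit. This understates the change of low genes. Benjamini-Hochberg adjusted p under 0.05 was called. Alternatives were other scalings and centrings, pseudocounts of 0.5 and 5, a minimum mean of 50, edgeR 4.0.16 and DESeq2 1.42.0 on recovered reads, array weights, a replicate block and leaving out each library. The fit was tested on simulated data. The 12 libraries held 4074413 to 19670570 reads. Lengths and 50-base stretches came from GENCODE vM21, with a coding length for 10095 genes. Quantile normalisation, removal of the length trend and other fits without CD_WD replicate 1 beside the plain one were added after the data were seen.

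Members and gene lists were chosen with earlier results of these data known. Named genes were a set list of stalk, 5S, paralog and signalling genes, up to 8 members with the smallest p per contrast and direction, the 3 highest and lowest by fold change, by centred fit and by level. Core genes whose call was lost without CD_WD replicate 1 were named too. No promoter from chromosome 18 was considered for printing. Wilson intervals cover counting error only. Some items are not reported here.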

Additional observations from a re-analysis of the deposited data

How the results depend on the processing

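For the offspring's diet, 66 of 82 members were called with WD mothers and 64 with CD mothers, and the pairs of counts here keep that order. Plain scaling to library totals gave 25 and 21. Values centred on the core members gave 12 (5 higher and 7 lower) and 15. With the length trend removed the counts were 10 and 11, and 11 with CD mothers when CD_WD replicate 1 was also left out. Leaving out that library gave 19 (11 higher and 8 lower) with CD mothers in the centred values and 16 with library totals. A fit of only the groups compared gave 72 and 23. Leaving out single libraries gave 31 to 57 and 27 to 74. The 74 came without CD_WD replicate 3, where 9.26% of all genes were higher. Both contrasts of the mother's diet and the interaction had 0 under each alternative run and 0 to 0 with single libraries left out. Same-numbered libraries did not deviate together (r from -0.23 to 0.07 over the pairs of groups), so the numbers were not used as pairs. With the replicate number as a block the counts were 67 and 66, where 13.1% and 8.65% of all genes were higher.

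Centred on the core members, 35 of 82 members were below 0 with WD mothers and 42 with CD mothers, against 1 in each as reported. Among the named members called as reported, those that turned with WD mothers were Rpl7 (-0.70), Rps10 (-0.42), Rpl22l1 (-0.34), Rplp0 (-0.26), Rps6 (-0.077), Rps19bp1 (-0.073) and Rpl36a (-0.026). With CD mothers such genes were Rps27l (-0.32), Rps6 (-0.26), Rplp0 (-0.22), Rps10 (-0.12), Rps19bp1 (-0.12), Rpl11 (-0.083) and Rpl18 (-0.047). Without CD_WD replicate 1 they included Rpl18 (-0.102), Rplp0 (-0.281) and Rps6 (-0.324), and with library totals Rplp0 (-0.029) and Rps6 (-0.072). This centring sets the typical member to 0 by construction. With the length trend removed 4 of 80 members were below 0 with WD mothers (lowest -0.40), the named and called Rpl41 (-0.07) and Rps29 (-0.003) among them. With CD mothers 0 were, and 7 of 80 when CD_WD replicate 1 was also left out (lowest -0.36), Rpl39 (-0.17) among them. Rps4l, the only member below 0 as reported, and Rpl37rt have no annotated coding length and were not in this fit. The trend was fitted on other genes, and only 219 of these had up to 300 coding bases, as Rpl41, Rps29 and Rpl39 have.

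Limits: with 3 libraries a group, 1 library can decide a call, and CD_WD replicate 1 moves the median with CD mothers to 1.51 when left out. Offspring diet and cell makeup of the preparations cannot be told apart, since summed lymphocyte markers were higher in every WD offspring library than in any CD offspring library. Levels of members that share sequence with other genes depend on counting rules not given in the sources used here. Rps27 and Rpl34 rested on few reads, and so did the value of Rps4l in WD_WD replicate 3 (2 reads).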
